A study of Mus musculus with 22 samples.

Results

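Potassium channel genes are those whose symbol starts with Kcn. They encode the subunits of the channels that carry potassium across the cell membrane, together with auxiliary subunits that change their gating or their transport to the membrane. In neurons these channels set the resting potential, end the action potential and limit repetitive firing. In glia, vessels and the choroid plexus they move potassium between compartments. Members were taken by symbol from the platform annotation, leaving out Kcnj9 and Kcnj10. The rule used the symbol alone and was set with earlier results of these data known. This gave 88 of 22276 genes with a single platform symbol. A gene was tested where at least 3 of its probesets were bright enough, and 84 members of 16016 genes passed.

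Levels were compared between whole brains of DBA/2J (D2) mice and C57BL/6J (B6) mice, 12 D2 and 10 B6 animals. Both are inbred strains, and all animals were naive adult males with 1 mouse per array and no treatment. The Affymetrix Mouse Exon 1.0 ST array carries probesets, small groups of probes, along the exons of each gene. A gene value is the median, on each array, of the gene's probesets whose mean over 22 arrays was at least 1.44 on the log2 scale. All values are log2 values on the scale of RMA, an array summary method, and differences are D2 minus B6. A gene was called at an adjusted p under 0.05. The value ± after a difference is its standard error.

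The members had 1096 probesets, of which 931 were kept, with 3 to 42 per tested member and a median of 8. Kcna10 (1 kept probeset of 4), Kcne1 (2 of 8), Kcnj1 (0 of 3) and Kcnk15 (2 of 2) were not tested. Kcna5, Kcnv2, Kcne1l, Kcne3 and Kcnk18 entered with exactly 3 kept probesets. The kept probeset nearest to the limit was one of Kcnv2 at 1.442, and the nearest below it was one of Kcns1 at 1.431.

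The tissue carried brain transcripts: the synaptic gene Snap25 averaged 10.01 ± 0.16 in D2 brains and 10.12 ± 0.23 in B6 brains (SD, n = 12 and 10). Medians of single arrays over all probesets were 1.45 to 1.51 in D2 and 1.41 to 1.47 in B6. The array median thus went partly with strain, and as a covariate it can take up part of a strain difference. The array file names carry a letter A or B. Letter B stood on 2 D2 and 2 B6 arrays and letter A on the 18 others. D2 replicate 13, a letter B array, had the lowest members' values: their median deviation from the gene means over 22 arrays was -0.22, against -0.15 over all genes on that array. In whole brain, fewer cells of a type and less RNA per cell cannot be told apart. The array was designed on B6 sequence, so a D2 variant under a probe can lower its D2 signal. Such variants were not tested. Both blood markers tested were lower in D2: Hbb-b1 averaged 6.04 in D2 and 10.16 in B6 brains, and Alas2 3.54 in D2 and 4.44 in B6 brains. Their summed linear level, 34.3 to 148 in D2 and 898 to 1340 in B6 brains, is mostly Hbb-b1. Called markers of other cells were 2 of 4 cerebellar, 2 of 4 oligodendrocyte, 2 of 3 endothelial, 1 of 5 microglial and 1 of 5 pericyte and meningeal. All of these were lower in D2. Among 6 astrocyte markers 2 were lower and 1 was higher. Over all genes tested 10.8% were called, 2.57% higher and 8.26% lower in D2. The part of the markers in the results below was not tested.

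Of the 84 members, 5 were called and all 5 were lower in D2: Kcnj11, Kcnf1, Kcnj13, Kcnb2 and Kcnj4. That is 5.95% of the members, against 10.8% of all genes tested (2.57% higher and 8.26% lower in D2). The 5 comprise 3 inward rectifiers, 1 silent subunit and 1 pore subunit of a delayed rectifier. A further 15 members had an unadjusted p under 0.05, which makes 20 of 84, against 25.3% of all genes. No member had strain values that did not overlap, against 1.18% of all genes. When each array was centred on the median of its gene values, the split of calls became 7 higher and 4 lower (11.1% of all genes called). The excess of lower over higher calls was thus present on the deposited scale and absent after centring.

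Most members differed little. The median difference was -0.085 over the 84 members and -0.053 over all genes tested, and 58 of the 84 members were below 0 (61.9% of all genes were). The difference was under 0.1 in size in 30 members and under 0.2 in 62. It reached 0.3 in 9 members, 10.7% of them, against 15.1% of all genes.

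**Figure D1:**
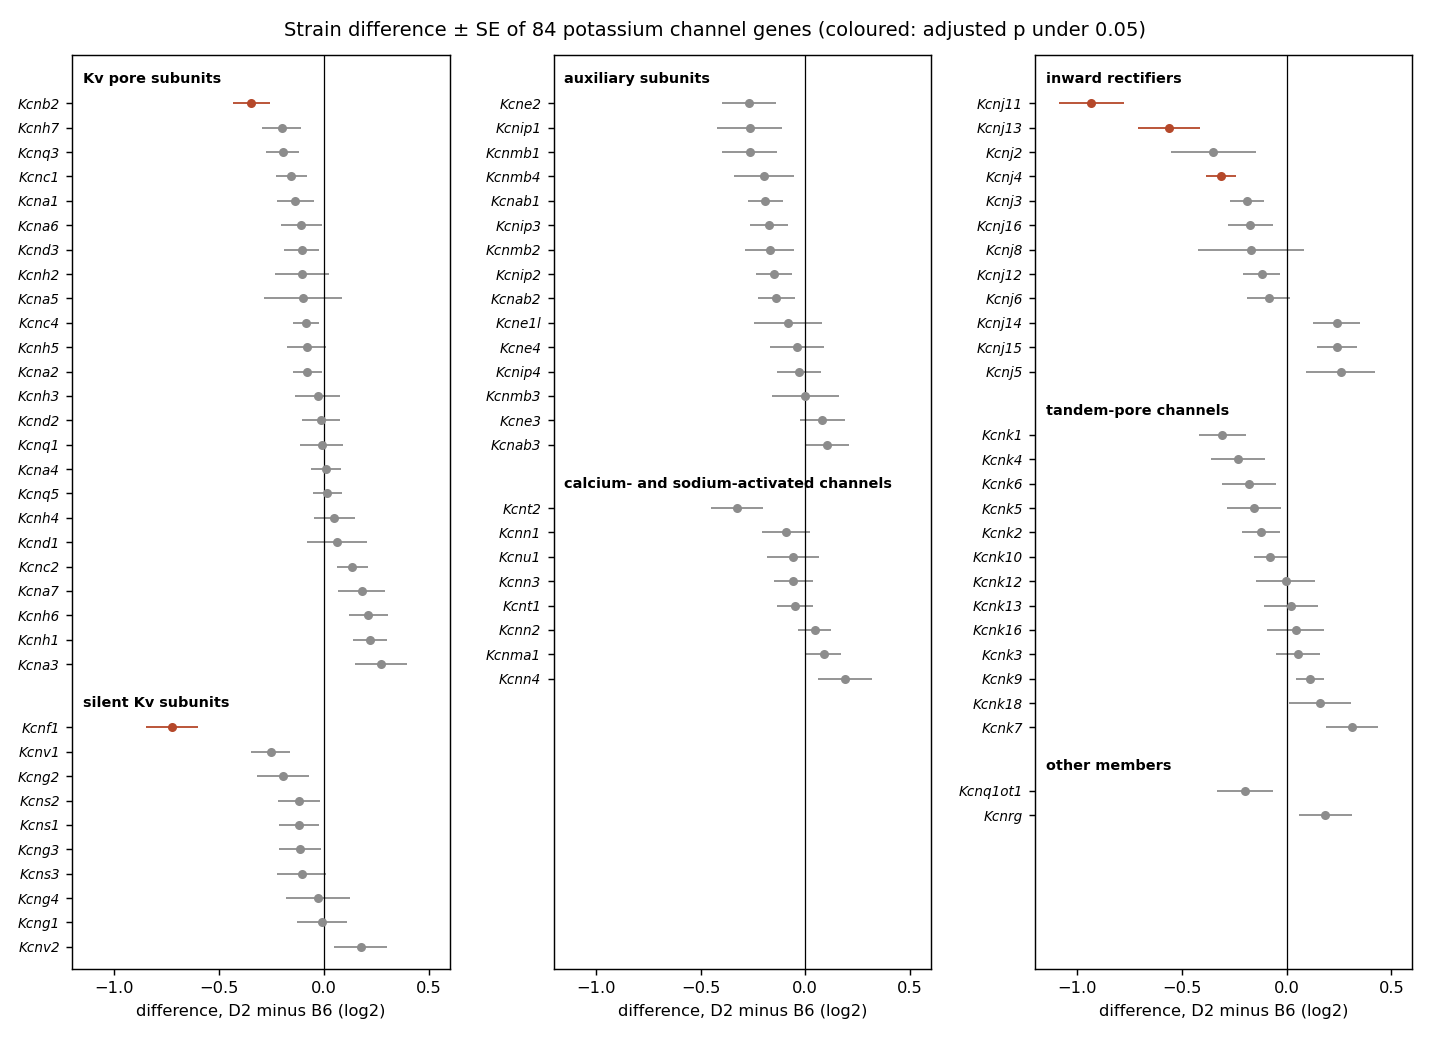
Difference in gene value (log2, D2 minus B6, horizontal axis) with its standard error for each of the 84 potassium channel genes tested, grouped by subfamily. The 5 coloured genes passed the test and all lie left of 0, with Kcnj11 at -0.93 and Kcnf1 at -0.73, while most others lie within 0.2 of 0.

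The inward rectifiers, which pass potassium more easily into the cell than out of it, held 3 of the 5 calls. Of 13 members 12 were tested, 3 were lower and none was higher, against 8.26% and 2.57% of all genes tested. The median difference was -0.17, against -0.053 over all genes. Kcnj11 encodes Kir6.2, the pore of the ATP-sensitive potassium channel, which couples the metabolic state of a cell to its excitability. Kcnj11 had a lowest value of 3.07, a median of 3.61 and a highest value of 4.57 in D2 brains, against 4.25, 4.58 and 5.03 in B6 brains. Of the 12 D2 brains 11 lay below the lowest B6 brain, and the D2 values spread more widely (SD 0.48 in D2 and 0.25 in B6).

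The Kcnj11 difference was -0.93 ± 0.155 (limma, adjusted p = 1.42e-04), a D2 level 0.524 times that of B6. It was the largest difference among the members. All 5 kept probesets of Kcnj11 were lower in D2 and 3 passed the test on their own. Their differences were -0.50, -0.80, -1.08, -0.62 and -1.04, ordered from the highest to the lowest B6 level. Leaving out each probeset in turn, an alternative added after the data were seen, gave differences of -0.997 to -0.753, and all 5 remained called.

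The sulfonylurea receptors that join Kir6.2 did not pass the test. Abcc8, the neuronal and pancreatic receptor, averaged 5.27 ± 0.098 in D2 brains and 5.24 ± 0.193 in B6 brains (SD), a difference of 0.02 (adjusted p = 0.873). Abcc9, the receptor of vascular and cardiac channels, differed by -0.04 (adjusted p = 0.771). Kcnj8, which encodes Kir6.1 of the same vascular channels, differed by -0.17 ± 0.253 (adjusted p = 0.712).

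Kcnj13 encodes Kir7.1, a channel of transporting epithelia such as the choroid plexus. Its lowest, median and highest values were 3.53, 4.25 and 4.99 in D2 brains, against 4.40, 4.91 and 5.24 in B6 brains. The strains overlapped, with 7 of 12 D2 brains below the lowest B6 brain. The difference was -0.56 ± 0.149 (limma, adjusted p = 0.0146), and all 4 probesets were lower in D2. It was not called on the 18 letter A arrays alone (-0.47), and it was called in 2 of 4 refits that left out a probeset.

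Choroid plexus markers were set beside Kcnj13, and their part in the result was not tested. Of 6 choroid plexus and ependyma markers 3 were lower in D2 (Folr1 by -0.61, Foxj1 by -0.65 and Otx2 by -0.49), none was higher, and Ttr (-0.16), Clic6 (-0.19) and Aqp1 (-0.25) did not pass the test. Over all genes 8.26% were lower in D2. The list's summed level on the linear scale ranged from 1344 to 2056 in D2 brains and from 1844 to 2142 in B6 brains. That sum is mostly Ttr, which averaged 10.72 in D2 and 10.87 in B6 brains. None of the 6 had a mean below the filter level. Across D2 mice, Kcnj13 followed the mean of the 6 markers with Pearson's r = 0.69 (permutation p = 0.0118, 0.0474 adjusted over 4 relations, n = 12) and Spearman's rho = 0.68 (p = 0.0183, adjusted 0.0733). Without the 2 D2 mice farthest from the marker median, r was 0.53 (permutation p = 0.11, n = 10), so it no longer passed the test without them. On the 10 letter A arrays of D2, r was 0.60. Across B6 mice r was 0.49 (permutation p = 0.154) and rho was 0.58 (p = 0.0892, n = 10). Kcne2, an auxiliary subunit that is also found in the choroid plexus, had r = 0.18 in D2 and -0.08 in B6 mice, with permutation p = 0.586 and 0.827.

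Kcnj4 encodes Kir2.3, a strong inward rectifier of forebrain neurons. Its lowest, median and highest values were 5.41, 5.66 and 5.89 in D2 brains, against 5.78, 5.94 and 6.19 in B6 brains. The overlap was narrow, with 9 of 12 D2 brains below the lowest B6 brain. The difference was -0.31 ± 0.070 (adjusted p = 0.0036). All 4 probesets were lower, by -0.46 in the 1 that passed on its own and by -0.09, -0.17 and -0.25 in the others. It was called in 2 of 4 refits that left out a probeset. Among neuronal markers, 0 of 3 pan-neuronal, 0 of 3 glutamatergic and 0 of 5 GABAergic markers tested passed in limma, with 0, 1 and 0 at an unadjusted p under 0.05.

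**Figure D2:**
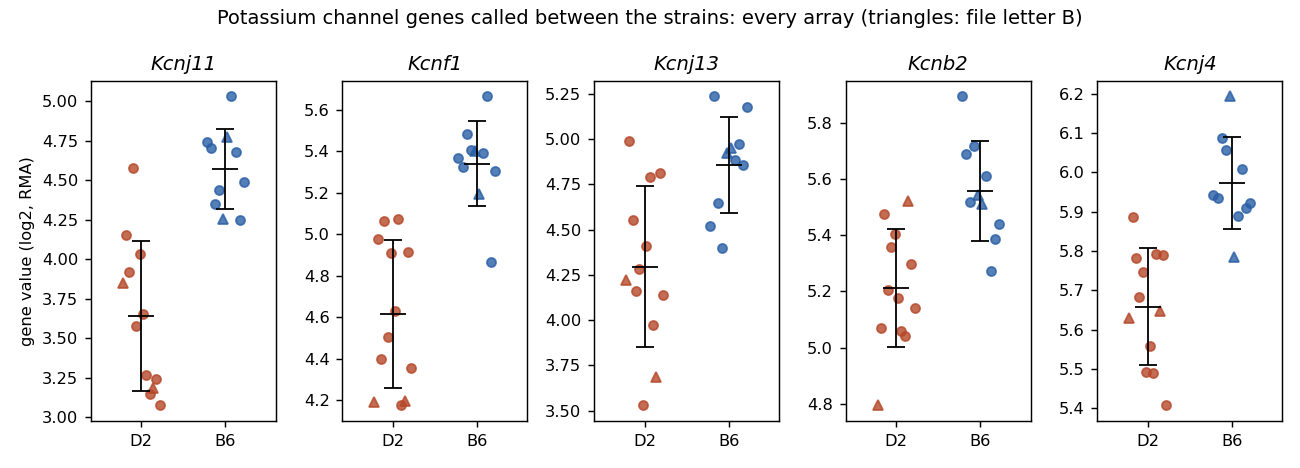
Gene value (log2, RMA) of the 5 called potassium channel genes on every array, D2 left of B6 in each panel, with the strain mean and SD in black and letter B arrays as triangles. The strain means are 0.31 (Kcnj4) to 0.93 (Kcnj11) apart, and in every panel the highest D2 value lies above the lowest B6 value.

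The 9 other inward rectifiers tested did not pass. Kcnj1 was not tested, and Kcnj9 and Kcnj10 were left out by the rule. Kcnj2 (Kir2.1), a rectifier of neurons and vessels, had the largest uncalled difference of all members, -0.35 ± 0.201 (adjusted p = 0.284), with all 7 probesets lower. On the letter B arrays alone it was 0.25. Its D2 values ran from 2.40 to 4.33, against 3.40 to 4.56 in B6. Kcnj3 and Kcnj6 encode subunits of the neuronal channels opened by G proteins, and they differed by -0.19 (adjusted p = 0.131) and -0.09 (adjusted p = 0.639). Kcnj5, a channel opened by G proteins in the heart, differed by 0.26 ± 0.165 (adjusted p = 0.344).

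The silent subunits do not form channels alone but join Kv2 subunits and change their gating. All 10 were tested, 1 was lower (Kcnf1) and none was higher, against 8.26% and 2.57% of all genes. Of the 10, 9 lay below 0, against 61.9% of all genes. Their median was -0.12, against -0.053 over all genes. Kcnf1 encodes Kv5.1 and is described as intronless in human. Its lowest, median and highest values were 4.18, 4.57 and 5.07 in D2 brains, against 4.87, 5.38 and 5.66 in B6 brains. Of the 10 B6 brains 9 lay above the highest D2 brain. The difference was -0.73 ± 0.122 (adjusted p = 1.62e-04).

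The Kcnf1 probesets did not shift alike. All 8 were lower in D2, but the size ran from -0.14 to -2.86. The probeset with the ID 5079116 had values of 0.23 to 1.79 in D2 brains (median 1.09) and 2.50 to 5.42 in B6 brains (median 3.97). The probeset 4507094 had values of 0.78 to 3.377 in D2 brains (median 2.20) and 3.381 to 5.29 in B6 brains (median 4.39). Neither pair of ranges overlapped, though in 4507094 the strains nearly met. The difference of 4507094 was -2.14 ± 0.314 (adjusted p = 5.12e-05). Probeset 5079116 passed the filter only through B6, its D2 mean lying under the filter level, so it had to differ and its difference of -2.86 is a description. Among the 931 kept member probesets 6 were kept only through B6 and 12 only through D2.

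The remaining probesets of Kcnf1 moved less. Probeset 4423436 differed by -1.06 and 4478934 by -0.47, and both passed on their own. The 4 others differed by -0.14, -0.19, -0.30 and -0.43 and did not. Against the gene value, the splicing index (probeset minus gene value on the same array) fell by 2.14 for 5079116 and by 1.42 for 4507094, and it was 0.59 higher in D2 for 4724111, whose own level differed by -0.14. The gene-level call thus depended on which probesets entered. Without the 3 called on the index the difference was -0.26 and was not called, and refits that left out 1 probeset gave -1.19 to -0.26, called in 4 of 8. Without 5079116 alone it was -0.26 and not called (adjusted p = 0.222). The index differences given here were taken against the gene value that includes 5079116, and the index without it was not tested.

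**Figure D3:**
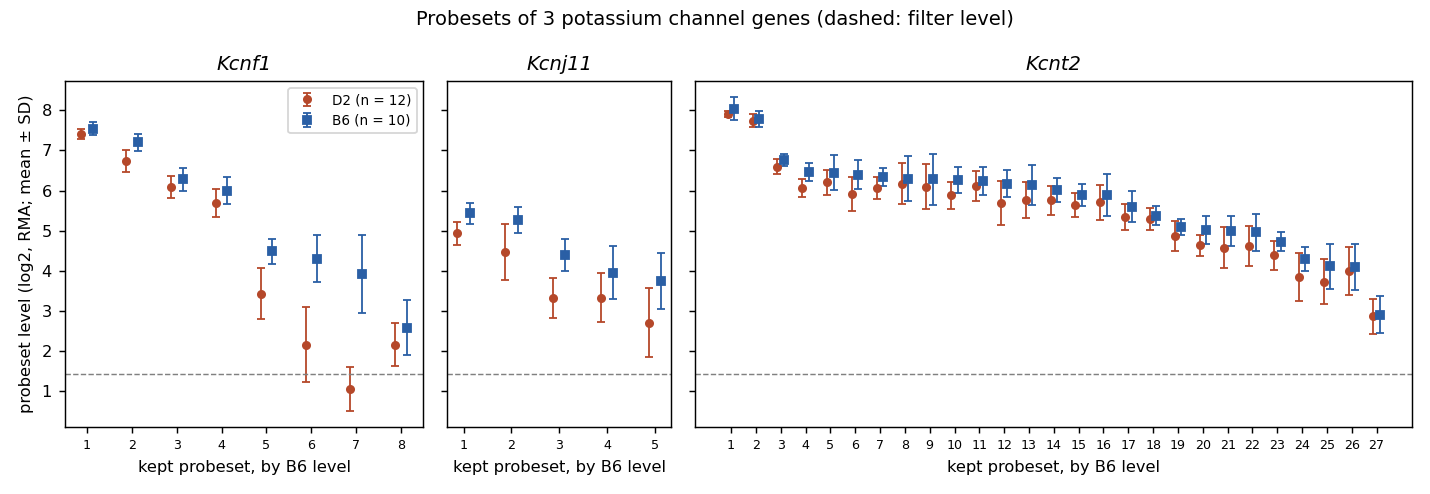
Level (log2, RMA; mean ± SD over 12 D2 and 10 B6 brains) of every kept probeset of Kcnf1, Kcnj11 and Kcnt2, ordered by B6 level, with the filter level dashed. In Kcnf1 the sixth and seventh probesets are more than 2 units lower in D2 while the brightest differs by 0.14, and in Kcnj11 and Kcnt2 every probeset lies lower in D2.

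Promoter sequences are given for the called members listed in the RefSeq table of GRCm38.p6. Of the 5 called members 3 were listed. Each sequence is the 250 bases before the gene's start, written 5′ to 3′ on the gene's strand, with motif letters in capitals. Motifs were searched by their letters on both strands. A GC box, bound by Sp1, was read as GGGCGG, and a TATA box, which places the start of transcription, as TATAAA. The CCAAT box is named by its letters. An E-box, bound by basic helix-loop-helix factors, was read as CACGTG, and the cyclic AMP response element (CRE) as TGACGTCA.
Kcnf1 promoter, chr12:17176889-17177138, minus strand: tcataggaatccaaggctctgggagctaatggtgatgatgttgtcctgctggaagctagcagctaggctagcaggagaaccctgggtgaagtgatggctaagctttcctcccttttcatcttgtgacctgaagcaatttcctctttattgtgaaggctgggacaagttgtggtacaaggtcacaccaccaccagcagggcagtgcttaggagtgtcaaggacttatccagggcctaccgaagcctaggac
Kcnj13 promoter, chr1:87394730-87394979, minus strand: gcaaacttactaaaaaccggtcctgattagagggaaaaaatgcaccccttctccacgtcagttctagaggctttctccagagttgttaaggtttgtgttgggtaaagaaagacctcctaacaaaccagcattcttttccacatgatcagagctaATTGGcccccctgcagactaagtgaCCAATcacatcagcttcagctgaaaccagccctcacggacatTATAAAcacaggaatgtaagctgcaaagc
Kcnj4 promoter, chr15:79505242-79505491, minus strand: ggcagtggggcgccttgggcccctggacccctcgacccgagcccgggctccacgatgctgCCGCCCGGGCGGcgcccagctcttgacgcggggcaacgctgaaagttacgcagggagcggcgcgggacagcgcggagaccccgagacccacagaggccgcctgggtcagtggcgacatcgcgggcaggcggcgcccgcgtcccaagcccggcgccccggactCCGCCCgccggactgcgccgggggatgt

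The Kcnj4 promoter held 77.2% GC, 35 CpG dinucleotides and 3 GC boxes, 2 of them back to back. The Kcnj13 promoter held 45.2% GC, 3 CpG, 1 TATA box and 2 CCAAT boxes, and the Kcnf1 promoter 51.2% GC, 1 CpG and none of the 5 motifs. Over all 32851 promoters of the table, the GC box was found in 32.7%, the TATA box in 12.4%, the CCAAT box in 33.8%, the E-box in 6.02% and the CRE in 1.55%. The median promoter had 52.4% GC and 6 CpG. A match is a description of these letters only.

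Among the pore subunits of voltage-gated (Kv) channels, 24 of 25 members were tested. In D2, 1 was lower (8.26% of all genes were) and none was higher (2.57% were). The median difference was -0.05, and -0.053 over all genes. The called gene was Kcnb2, which encodes Kv2.2, a delayed rectifier that supports sustained firing. Kcnb2 had lowest, median and highest values of 4.79, 5.19 and 5.52 in D2 brains, against 5.27, 5.53 and 5.89 in B6 brains. The difference was -0.35 ± 0.088 (adjusted p = 0.0107), with all 7 probesets lower and 1 passing on its own (-0.40). The strains overlapped, with 7 of 12 D2 brains below the lowest B6 brain. Without D2 replicates 13, 14 and 19 it was -0.28 and the adjusted p was 0.0512.

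The channels that shape the spike and its threshold did not pass the test. Kcna1 and Kcna2, the Kv1 channels of axons, differed by -0.14 and -0.08. Kcnc1, the Kv3.1 channel of fast-spiking neurons, differed by -0.16 (adjusted p = 0.197), and Kcnd2, the Kv4.2 channel of dendritic A-type current, by -0.01 (adjusted p = 0.942). Kcnq3, a subunit of the M current that restrains repetitive firing, differed by -0.20 (adjusted p = 0.106), with 16 of 18 probesets lower.

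A few pore subunits leaned the other way without passing at gene level. Kcna3, the Kv1.3 channel of microglia and lymphocytes as well as neurons, averaged 5.74 ± 0.24 in D2 brains and 5.46 ± 0.36 in B6 brains (SD), a difference of 0.27 (adjusted p = 0.162). Of the 4 Kcna3 probesets, however, 2 were lower in D2. Kcnh1, the first ether-à-go-go channel, had all 15 probesets higher in D2 and was named here after its values were seen. Kcnh1 differed by 0.22 ± 0.082 (adjusted p = 0.087).

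None of the 15 auxiliary subunits tested (of 16) was called by limma, against 10.8% of all genes. An unadjusted limma p under 0.05 was found in 2, against 25.3% of all genes. The median difference of the 15 was -0.15, against -0.053 over all genes. The largest were Kcne2 with -0.27 (adjusted p = 0.186), Kcnip1, a calcium-binding partner of Kv4 channels, with -0.27 (adjusted p = 0.295), and Kcnmb1, a BK channel subunit of smooth muscle, with -0.27 (adjusted p = 0.207). All 5 Kcnmb1 probesets were lower in D2. With the array median, which went partly with strain, as a covariate Kcnip1 differed by 0.21 and Kcnmb1 by 0.09.

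None of the 8 calcium- and sodium-activated channels was called by limma, against 10.8% of all genes. An unadjusted limma p under 0.05 was found in 1, against 25.3% of all genes. The median of the 8 was -0.05. Kcnma1, the BK channel of large conductance, differed by 0.09 ± 0.083 (adjusted p = 0.543) and Kcnn2, the small-conductance channel behind afterhyperpolarization, by 0.04 (adjusted p = 0.771). Kcnt2, a sodium-activated channel, had lowest, median and highest values of 4.93, 5.76 and 5.89 in D2 brains, against 5.55, 5.99 and 6.41 in B6 brains. All 27 of its probesets were lower in D2, yet the difference of -0.33 ± 0.125 did not pass (adjusted p = 0.0966), and no Kcnt2 probeset passed on its own. With the array median, which went partly with strain, as a covariate the Kcnt2 difference was 0.17. Kcnn4, a channel of blood cells and epithelia, differed by 0.19 (adjusted p = 0.383).

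None of the 13 tandem-pore channels tested (of 14) was called by limma, against 10.8% of all genes. An unadjusted limma p under 0.05 was found in 2, against 25.3% of all genes. Tandem-pore channels give neurons and glia their background leak, and their median difference was -0.004. Kcnk1 (TWIK-1) had values of 7.85 to 8.84 in D2 brains (median 8.24) and 8.30 to 8.82 in B6 brains (median 8.52), a difference of -0.31 ± 0.111 (adjusted p = 0.0769) with all 7 probesets lower. Kcnk7, with low means of 2.48 in D2 and 2.17 in B6 brains, differed by 0.31 ± 0.124 (adjusted p = 0.107). All 4 kept probesets of its 8 were higher, and without the filter the difference was 0.21. Kcnk2 (TREK-1), a channel opened by stretch and lipids, differed by -0.12 (adjusted p = 0.409). The other members were Kcnq1ot1, an antisense transcript of the imprinted Kcnq1 locus (-0.20, adjusted p = 0.364), and Kcnrg, a regulator of Kv channel assembly (0.18, adjusted p = 0.381). Kcnq1ot1 and Kcnq1 lie on opposite strands of 1 locus.

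Probesets of a gene were often on the same side. Among the tested members 12 of 84 had every kept probeset lower in D2 (14.3%, against 6.21% of all genes) and 7 had every one higher (8.33%, against 5.74%). Probesets of a gene share the same RNA and are not replicates, and genes with few probesets reach this more easily. The longest runs were Kcnt2 with 27 lower and Kcnh1 with 15 higher.

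At the level of single probesets, 16 of 931 passed the test (1.72%). They lay in 11 genes, 4 with the D2 level above that of B6 and 12 below. Over all kept probesets 3.91% passed. Among those with a single gene symbol 4.06% did, 1.27% higher and 2.79% lower. The 4 higher ones belonged to Kcna3 (0.54), Kcnh1 (0.34), Kcnh6 (0.52) and Kcnt1 (0.48).

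The splicing index, which asks whether a probeset moved differently from its gene, passed for 6 of 926 member probesets (0.648%, against 1.66% of all), in 4 genes (4.76%, against 13.9%). A call needed an index difference of at least 0.5. One of the 6 is the Kcnf1 probeset kept only through B6, and 5 calls remain where both strain means must reach the filter level. That setting dropped the probeset's own index but left it in the Kcnf1 gene value. The remaining Kcnf1 index calls thus still depend on it. Besides the 3 in Kcnf1, the index calls were in Kcnh3, Kcnh7 and Kcnt1. In Kcnh3, an ether-à-go-go-like channel of forebrain neurons, probeset 5235908 had an index difference of -0.70 (adjusted p = 0.00357) and levels of 2.77 to 4.74 in D2 and 4.24 to 5.10 in B6. In Kcnh7, an ERG channel, probeset 4343597 had -0.58 (adjusted p = 0.0410) and levels of 4.86 to 6.46 in D2 and 6.24 to 7.05 in B6. In Kcnt1, the other sodium-activated channel, probeset 5120727 had 0.53 (adjusted p = 0.0087). These 3 genes had gene differences of -0.03, -0.20 and -0.05, none of them called.

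Genes that bind or regulate potassium channels but do not carry the Kcn prefix were compared in the same fit. Of 33 such genes 32 were tested, 2 were lower in D2 and none was higher, with a median of -0.05. Over all genes 8.26% were lower and 10.8% were called. Akap5, the anchoring protein of the M current, averaged 5.72 ± 0.18 in D2 brains and 6.13 ± 0.16 in B6 brains (SD), a difference of -0.41 ± 0.081 (adjusted p = 0.00119). Cntnap2, which clusters Kv1 channels beside the node of Ranvier, averaged 6.42 ± 0.13 in D2 brains and 6.71 ± 0.11 in B6 brains, a difference of -0.29 ± 0.066 (adjusted p = 0.0044).

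Spread between mice was similar in the strains. The median SD of a member was 0.251 in D2 and 0.233 in B6, against 0.2503 and 0.2436 over all genes. The SD was larger in D2 for 56 of 84 members (66.7%), against 53.7% of all genes, a difference not tested. The widest members were Kcnj8 (0.74 in D2 and 0.54 in B6) and Kcnj2 (0.63 and 0.34).

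**Figure D4:**
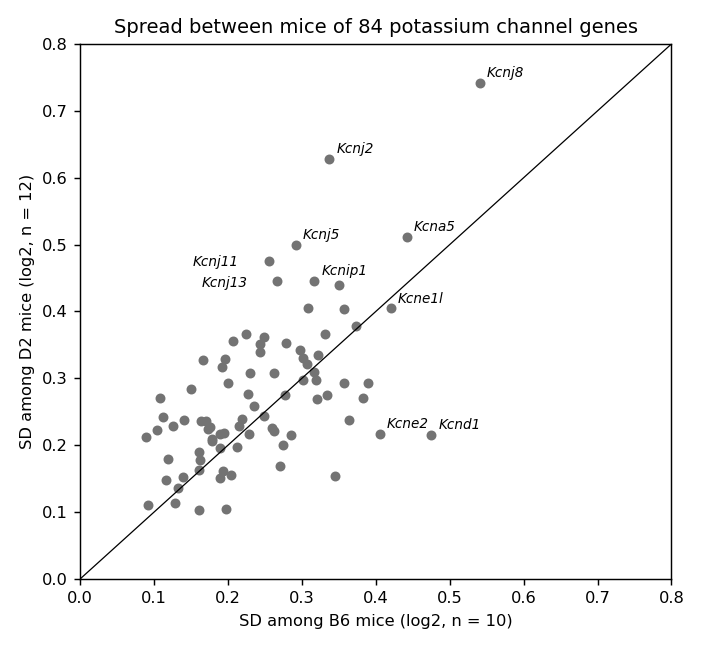
Standard deviation between mice (log2) of each of the 84 potassium channel genes tested, D2 on the vertical axis and B6 on the horizontal, with equal spread on the diagonal. Of the 84 points 56 lie above the diagonal, and Kcnj8 and Kcnj2 vary most among D2 mice.

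The 5 called genes stayed below 0 in D2 under the alternatives tried, but their calls did not hold alike. Kcnj11 was called under 11 of 12 alternatives, Kcnf1 under 9 of 12, Kcnj4 under 9 of 11, Kcnb2 under 8 of 12 and Kcnj13 under 7 of 11. The Kcnf1 count includes settings that keep its probeset that passed the filter only through B6. Without that probeset the Kcnf1 difference was -0.26 and was not called. With the array median as a covariate 3.09% of all genes were called, and of the members only Kcnf1 and Kcnj11. Averaging over probesets in place of the median called 15 members, 4 higher and 11 lower in D2 (17% of all genes). The 10 added by it were Kcnab1, Kcng1, Kcnh1, Kcnh6, Kcnj14, Kcnk1, Kcnmb1, Kcnq3, Kcns1 and Kcnv2.

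**Figure D5:**
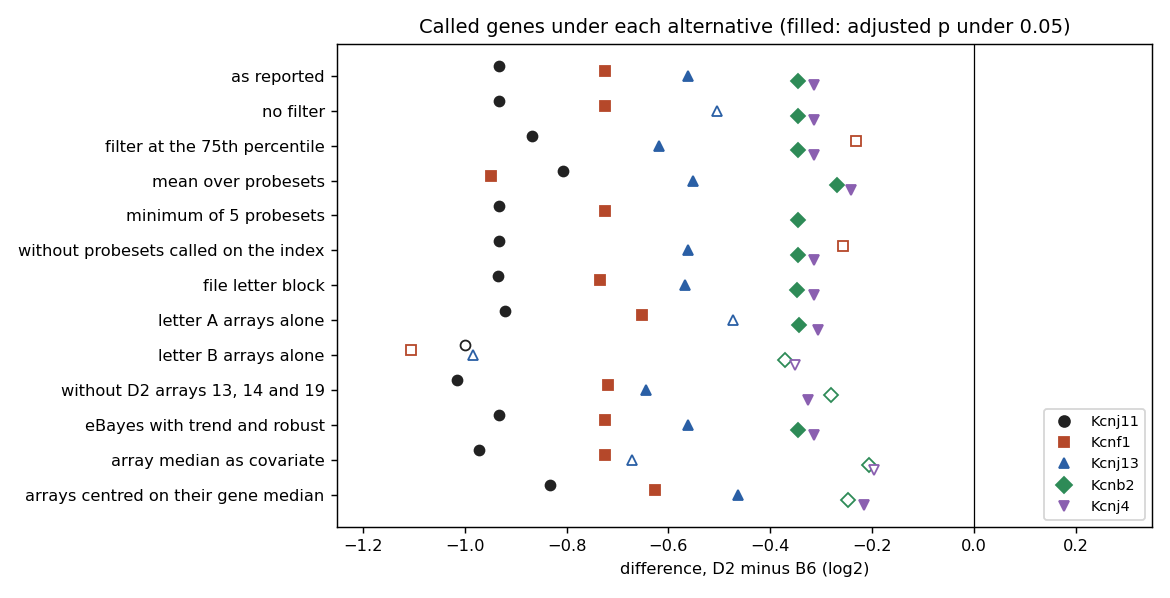
Difference (log2, D2 minus B6, horizontal axis) of the 5 called potassium channel genes as reported and under 12 alternative settings, filled where the adjusted p is under 0.05. Every value is below 0, and Kcnj11 is filled in every row except the 4 letter B arrays alone.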

How the data were processed

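Whole-brain total RNA of 12 D2 and 10 B6 mice was measured on 22 exon arrays, 1 mouse each. Per the labels, 24 arrays were hybridised and 2 read by a different scanner were left out by the authors. The values deposited by the authors are log2 intensities summarised per probeset by RMA, with affy 1.12.2 under R 2.6.0 according to the submitters' processing notes. Its options are not given in the sources used here. Arrays carry no read depth, and precision is limited by their number.

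Probesets were kept if their mean over 22 arrays reached the median over all probesets (1.44), and a gene value was the per-array median of at least 3 kept probesets with a single platform symbol. Values were fitted over all genes, all kept probesets or all index values with limma 3.58.1 in R 4.3.3 (lmFit and eBayes, D2 minus B6, two-sided). P-values were adjusted by Benjamini-Hochberg, with calls at 0.05, and for the index also a difference of at least 0.5. Correlations used 100000 permutations. The functions were tested on simulated data. Sequences came from RefSeq (GRCm38.p6). Figures were drawn with matplotlib 3.10.9.

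Alternatives varied the filter, probeset summary, minimum of probesets, file letter, arrays, variance model and scaling. Named were the called members, the 10 with the largest uncalled difference, 2 per subfamily, members with index calls, textbook brain channels and called partners. The members and lists were chosen with earlier results of these data known.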

Additional observations from a re-analysis of the deposited data

Results flagged for a closer look

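A lone B6 array stood apart from the other 9 in 2 of 44 values examined, where chance flags about 1 in 20. The Kcnmb1 gene value of B6 replicate 4 was 3.34, against 2.01 to 2.71 on the other B6 arrays. The Kcnq3 gene value of the same animal was 7.14, against 6.60 to 6.89 on the others. Neither gene was called between the strains. The D2 group of 12 arrays is above the size for which this comparison of a lone array is made.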

How the results depend on the processing

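No paired analysis was possible because the D2 and B6 mice share no replicate numbers. The number of potassium channel genes called, 5 as reported, was 15 (4 higher and 11 lower) with the mean over probesets, 3 with a minimum of 5 probesets, 0 on the letter B arrays alone, 2 with the array median as covariate and 11 with arrays centred on their gene median. Over all genes 17%, 11.7%, 0.468%, 3.09% and 11.1% were called in these settings, in the same order, against 10.8% as reported. The minimum of 5 probesets left 68 members tested. Centring also turned the members' median difference to 0.014, while that of all genes became 0.046. With the array median as covariate the members' median was -0.039 and that of all genes 0.025. That covariate went partly with strain and can take up part of a strain difference. The partner genes called, 2 as reported, were 0 on letter B arrays alone, 0 with the covariate and 1 when centred. Probesets called on their own level, 16 as reported, were 0 on letter B arrays alone, 25 with eBayes trend and robust and 7 with the covariate. Index calls, 6 as reported, were 2 with the filter at the 75th percentile, 2 at an index difference of at least 1, 0 on letter B arrays alone and 1 with the covariate. The letter B arrays number 2 per strain, and on them 0.468% of all genes were called. Kcnf1 differed by -0.23 with the filter at the 75th percentile and was not called. For single named genes and probesets, 412 alternative values kept direction and call, 9 gained a call, 41 lost it and 37 changed sign. The 37 belonged to genes not called in either setting and are given with their differences, D2 minus B6. Without a filter the sign turned in Kcne3 (-0.000666). With the filter at the 75th percentile the sign turned in Kcnn4 (-0.032). With the mean over probesets the sign turned in Kcnt1 (0.044), Kcnd2 (0.0083), Kcnn2 (-0.0048) and Kcnk2 (0.0018). On letter A arrays alone the sign turned in Kcna5 (0.12). On letter B arrays alone the sign turned in Kcnj2 (0.25), Kcnh7 (0.016), Kcnt1 (0.14), Kcna2 (0.12), Kcnc1 (0.12), Kcnd2 (0.35), Kcnn2 (-0.11), Kcne1l (0.17), Kcne3 (-0.15) and Kcnk18 (-0.12). Without D2 replicates 13, 14 and 19 the sign turned in Kcnh3 (0.043) and Kcnd2 (0.055). With the array median as covariate the sign turned in Kcnt2 (0.17), Kcnip1 (0.21), Kcnmb1 (0.087), Kcnn4 (-0.15), Kcnh3 (0.0068), Kcnh7 (0.027), Kcna2 (0.038), Kcnd2 (0.084), Kcnj3 (0.011), Kcna5 (0.18), Kcnv2 (-0.0804) and Kcnk18 (-0.054). With arrays centred the sign turned in Kcnh3 (0.071), Kcnt1 (0.049), Kcna2 (0.021), Kcnd2 (0.085), Kcnj6 (0.013) and Kcne1l (0.014). With a called gene's probesets left out in turn, 19 kept the call and 9 lost it. Except where fewer probesets, genes or arrays entered, the cause was not tested.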
